A study of Mus musculus with 14 samples.

Results

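The genes described here are 38 markers of blood lineages other than T cells, read in RNA-Seq libraries of activated mouse CD4+ T cells. They were chosen by gene name as 7 lists, with 9 B cell genes, 7 MHC class II genes, 12 myeloid genes, 3 ITAM adaptor and NK genes, 2 mast cell and basophil genes, 3 erythroid genes and 2 platelet genes, out of 47586 annotated genes with a value in at least 1 of the 14 samples. They are described gene by gene and list by list, as mutant against WT cells within each of 2 experiments.

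The first experiment compared 4 HDAC1cKO-HDAC2HET samples (genotype HDAC1f/f HDAC2f/+ CD4-cre+) with 4 WT samples after 3 days of activation with antibodies to CD3 and CD28 and added IL-2. The second compared 3 HDAC1cKO samples (HDAC1f/f CD4-cre+, with Hdac2 intact) with a separate set of 3 WT samples, taken after 3 days of activation and 12 hours of restimulation with anti-CD3. All mice were C57BL/6 and, per the study's methods, littermates of both sexes between 6 and 12 weeks of age. CD4-cre deletes floxed alleles in T cells from the thymic CD4+ CD8+ stage on, so both Hdac1 alleles were removed in the T cells of either mutant and 1 Hdac2 allele in those of the first. Naive cells (CD25- CD44lo CD62L+) were sorted from spleen and lymph nodes after depletion with antibodies to CD11b, CD11c, B220, Gr1, NK1.1, Ter-119 and CD8α, which addressed B cells, myeloid cells, NK cells and erythroid cells. These steps are the study's general methods, and for the second experiment the study refers to earlier work for the culture. RNA was prepared from viable cells purified by FACS, per the labels of both experiments. For the first experiment 4 independent batches per genotype were prepared on the same day. For the second, the labels number the samples of each genotype 1 to 3 without saying that these were separate cultures or mice, so that its p-values measure the spread between these samples, of which an unknown part may be technical.

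Each lineage in these lists is known by genes that work together. B cells carry a receptor whose signalling chains CD79a and CD79b form a heterodimer, and their identity is set by the transcription factors PAX5 and EBF1. MHC class II molecules present peptides to CD4+ T cells; an α and a β chain are assembled with the invariant chain CD74, H2-DM exchanges its fragment for a peptide, and the coactivator CIITA drives the genes of this pathway in antigen-presenting cells. PU.1 (Spi1) and the CSF1 receptor mark macrophages, S100A8 and S100A9 are abundant in neutrophils, CPA3 is a protease of mast cells and basophils, β-globin is the bulk product of erythroid cells, and PF4 is a chemokine of platelet granules. HDAC1 and HDAC2 are histone deacetylases, enzymes that remove acetyl groups from histones and occur in corepressor complexes.

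The deleted genes were read first. Hdac1 was at 76.3 to 79.6 FPKM (fragments scaled by transcript length and library depth) in the 4 WT and at 6.65 to 10.7 FPKM in the 4 HDAC1cKO-HDAC2HET samples, and at 72.3 to 81.1 against 8.52 to 12.1 FPKM in the second experiment. Hdac2 was at 58.2 to 60.3 against 34.0 to 37.0 FPKM in the first experiment, and at 62.4 to 78.2 against 74.8 to 88.1 FPKM in the second. The level of the targeted genes therefore went with the labels in all 14 samples. The 14 T cell genes read in every sample summed to 3313 to 3590 FPKM in WT and 2995 to 3209 FPKM in HDAC1cKO-HDAC2HET samples. There 2 rose and 10 fell (adjusted p of at most 0.05, limma), beside 24.2% and 27.6% of all 15110 genes tested. In the second experiment they summed to 2866 to 3498 FPKM and none passed (limma). An unadjusted p under 0.05 (limma) was found for 3 of them, beside 1998 of all 13946 genes tested. Depth, estimated from the confidence bounds of low values, ran from 24900000 fragments in HDAC1cKO-HDAC2HET replicate 3 to 58900000 in HDAC1cKO-HDAC2HET replicate 4. Xist, the RNA of the inactive X chromosome, was above 1 FPKM in all 8 samples of the first experiment. Its level there was 58.9 to 65.2 FPKM in WT and 26.0 to 33.7 FPKM in HDAC1cKO-HDAC2HET samples, without overlap. The log2 fold change was -1.07 (adjusted p = 4e-05, limma), and its source was not tested. In the second experiment Xist was above 1 FPKM in 2 of 3 WT samples and in 0 of 3 HDAC1cKO samples. Sex was thus unbalanced in the second experiment, and its WT samples did not all come from the same mouse. A value of 0 was not always an absence of reads. Cebpb, a transcription factor gene with levels between 5.97 and 8.98 FPKM in the first experiment, was listed at 0 in all 6 samples of the second. Genes without a value above 0 are therefore described only as listed at 0.

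Many of the markers were near 0 in every group. In the first experiment 17 of 38 were below 0.1 FPKM in every sample that had a value, and 6 of these (Csf1r, S100a8, S100a9, Tyrobp, Hbb-bs and Pf4) were listed at 0 throughout. In the second 18 were below 0.1 FPKM, and 7 (Ciita, Csf1r, Lyz2, S100a8, S100a9, Ncr1 and Hbb-bs) were listed at 0. A mean of at least 0.1 FPKM was required for the test, limma on log2(FPKM + 0.1), on which scale the change of low genes is understated. In the first experiment 14 markers entered it, 18 were too low, 4 had a locus that was listed at 0 in some sample and 2 (Cd68 and H2-DMb1) lacked a row in some sample. In the second experiment 17 entered, 15 were too low and 6 had a locus listed at 0 in some sample.

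**Figure D1:**
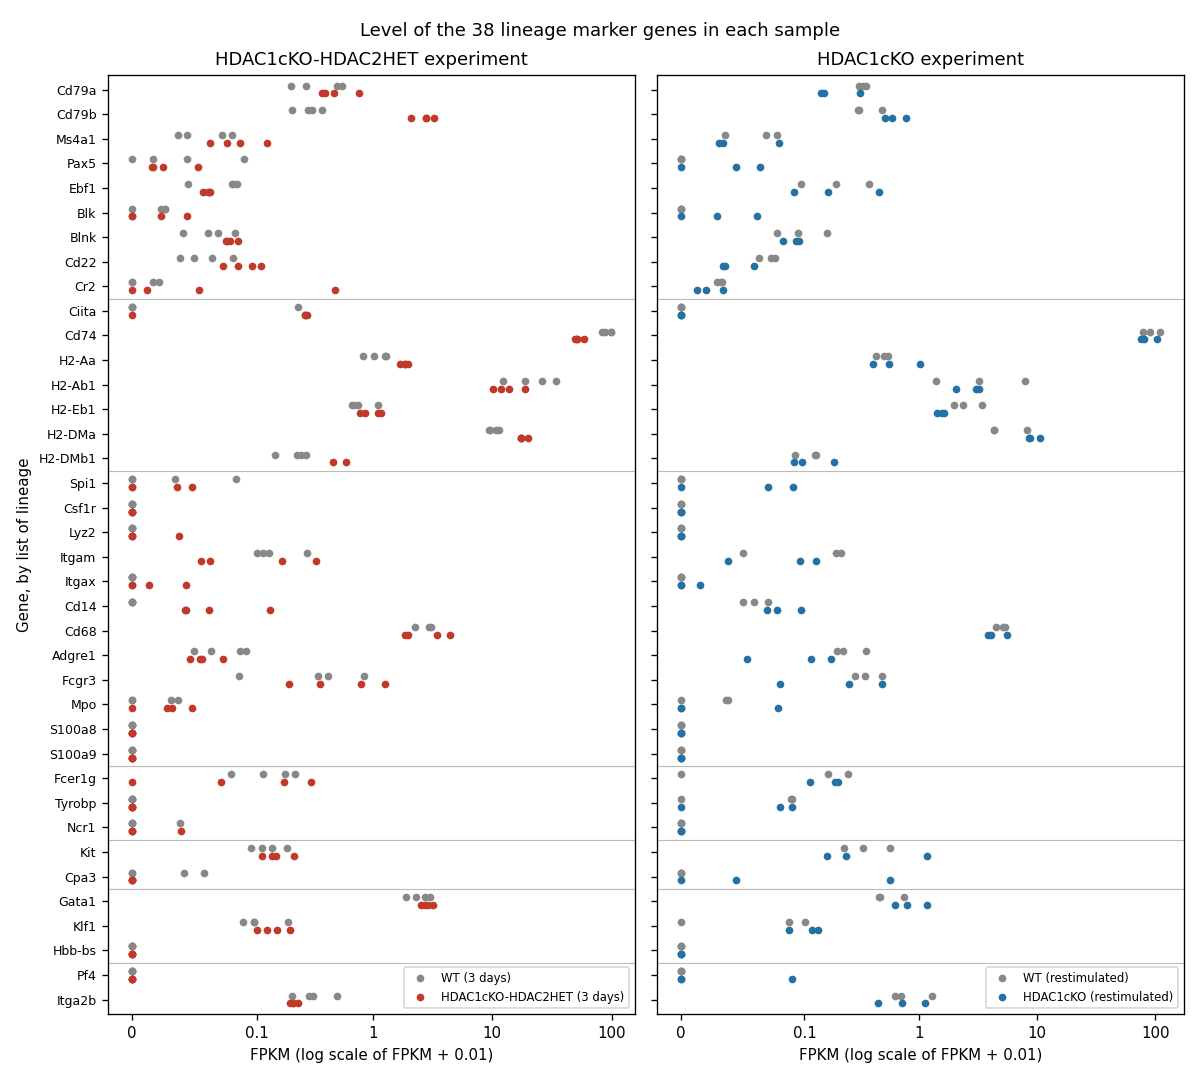
Level of each of the 38 genes (rows, grouped by list) in each sample (1 point a sample), as FPKM on a log axis of FPKM + 0.01, with the HDAC1cKO-HDAC2HET experiment on the left and the HDAC1cKO experiment on the right. Cd74 lies between 49.6 and 110 FPKM in all 14 samples, and S100a8, S100a9, Csf1r and Hbb-bs sit at 0 in all 14.

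Of the 14 markers tested in the first experiment, 3 rose (Cd79b, H2-DMa and H2-Aa) and 1 fell (Cd74) at an adjusted p of at most 0.05. Among all 15110 genes tested, 24.2% rose and 27.6% fell by the same rule, so that the share of the markers was not above that of other genes. Only Cd79b also changed at least 2-fold; 5.60% of all genes rose and 5.57% fell that far. The groups did not overlap for 4 of the 14 tested markers, against 50.4% of all genes tested, and for Cd14 among those too low to test. The median log2 fold change of the 14 markers was 0.21, and that of all genes was -0.04. In the second experiment none of 17 markers passed, where 0.0143% of 13946 genes rose and 0.0574% fell. An unadjusted p under 0.05 (limma) was found for 2 of the markers, beside 1998 of the 13946 genes. In that experiment 4 tested markers had groups that did not overlap (Cd79b, H2-Eb1, H2-DMa and Adgre1), against 22.3% of all genes, and so did Cd22 among the low ones. With 3 samples against 3 an exact permutation test cannot go below 0.1, and with 4 against 4 it cannot go below 0.0286. In a bulk sample fewer cells of a type and less RNA per cell cannot be told apart.

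**Figure D2:**
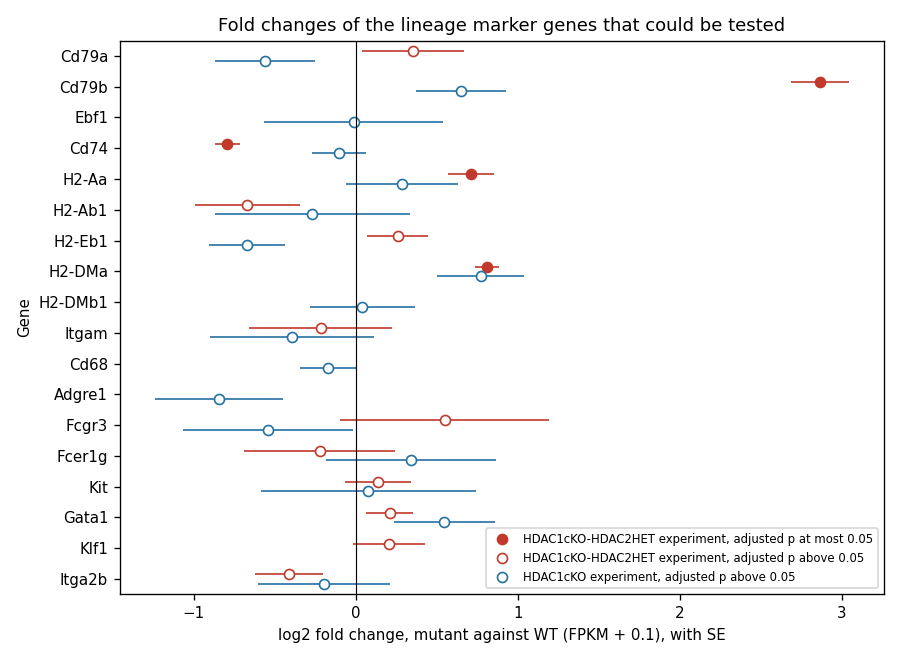
The log2 fold change of each tested marker, mutant against WT on the scale of FPKM + 0.1, with its standard error, in the HDAC1cKO-HDAC2HET experiment (red) and the HDAC1cKO experiment (blue). Filled points passed an adjusted p of 0.05, which 4 genes did in the first experiment (Cd79b at 2.87, H2-DMa at 0.81, H2-Aa at 0.71, Cd74 at -0.79) and none in the second.

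Among the B cell genes the receptor chains differed from each other. Cd79b, the gene of the Igβ signalling chain (chromosome 11, 106311341 to 106314762 on the minus strand in GRCm38), was at 0.376, 0.203, 0.307 and 0.284 FPKM in the 4 WT samples and at 2.83, 3.26, 2.82 and 2.12 FPKM in the 4 HDAC1cKO-HDAC2HET samples. Every mutant sample was above every WT sample, and the mean of 2.76 ± 0.47 FPKM (SD, n = 4) was 9.42 times the WT mean of 0.293 ± 0.071. Cd79b rose by a log2 fold change of 2.87 (SE 0.18, adjusted p = 1.06e-05, limma), and the exact 2-sided permutation test of its mean gave p = 0.0286, the smallest that this design allows. The bounds of these values correspond to about 9 to 20 fragments in a WT library and 67 to 141 in a mutant library.

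Its partner Cd79a, the gene of Igα (chromosome 7, 24897381 to 24902197, plus strand), was at 0.551, 0.502, 0.273 and 0.200 FPKM in WT and at 0.397, 0.772, 0.370 and 0.475 FPKM in HDAC1cKO-HDAC2HET samples. The groups overlapped widely, with a log2 fold change of 0.35 (SE 0.31, adjusted p = 0.391, limma). Only 1 of the 4 WT values came from a row with the gene's name, against all 4 mutant values. The other 3 WT values were read from unnamed loci, and the effect of this difference was not tested. The levels of the 2 chains overlapped in WT samples, whereas in every HDAC1cKO-HDAC2HET sample Cd79b was the higher one.

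The 7 other B cell genes did not enter the test in the first experiment. Pax5, the factor that maintains B cell identity, was at 0 to 0.0761 FPKM in WT and 0.00472 to 0.0255 FPKM in mutant samples, and its locus was listed at 0 in 1 WT sample. Ebf1, which acts with it, was at 0.0194 to 0.0656 against 0.0289 to 0.0345 FPKM. Ms4a1, the gene of the surface marker CD20, was at 0.0140 to 0.0575 FPKM in WT and at 0.0344 to 0.123 FPKM in mutant samples (exact permutation p = 0.171, n = 4 and 4). These groups overlapped for all 3 genes. Cd22, an inhibitory receptor of B cells, was at 0.0148 to 0.0591 against 0.0473 to 0.110 FPKM (exact permutation p = 0.0571). Blnk, the adaptor below the B cell receptor, was at 0.0165 to 0.0619 against 0.0502 to 0.0659 FPKM, and Blk, a Src family kinase, did not exceed 0.0185 FPKM in any of the 8 samples. Cr2, the complement receptor CD21, was at 0 to 0.00686 FPKM in WT and at 0 to 0.0260 FPKM in mutant replicates 1 to 3, with 0.477 FPKM in HDAC1cKO-HDAC2HET replicate 4 standing apart.

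Further B cell genes moved in both directions. Of 15 such genes 9 could be tested, of which 5 rose and 3 fell, beside 24.2% and 27.6% of all genes tested. The 3 called genes with the largest change were Pou2af1, a coactivator of octamer-binding factors, which was at 12.4 to 20.8 FPKM in WT and 1.05 to 1.20 FPKM in HDAC1cKO-HDAC2HET samples (log2 fold change -3.74, SE 0.15), Igkc, the immunoglobulin κ constant gene, which rose from a range of 0 to 0.604 FPKM to one of 2.21 to 4.16 FPKM (3.08, SE 0.62), and Btk, a kinase of B cell receptor signalling, which fell from a range of 4.70 to 6.94 FPKM to one of 0.766 to 1.29 FPKM (-2.61, SE 0.19). The list's tested median was 0.62 beside -0.04 for all genes. The part that cells of another type had in the rise of Cd79b was not tested; beside it stand Pax5, Ebf1 and Blk at or near 0, and Igkc at higher values in the mutant.

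With restimulation Cd79b was at 0.307, 0.483 and 0.304 FPKM in WT and at 0.587, 0.778 and 0.511 FPKM in HDAC1cKO samples. The groups did not overlap, but the log2 fold change of 0.65 (SE 0.28) did not pass after adjustment (adjusted p = 0.361, limma), and the exact permutation p was 0.1, the smallest possible. Cd79a was at 0.334, 0.307 and 0.355 against 0.315, 0.142 and 0.150 FPKM, with groups that overlapped. Cd22 was at 0.0471, 0.0525 and 0.0353 against 0.0137, 0.0127 and 0.0315 FPKM; these values rest on about 13 fragments in the 3 WT libraries and about 6 in the 3 HDAC1cKO libraries. Ebf1 was the only other B cell gene tested, at 0.379, 0.193 and 0.0935 against 0.455, 0.164 and 0.0801 FPKM (adjusted p = 0.995, limma), with widely overlapping groups. Pax5, Blk, Blnk, Cr2 and Ms4a1 stayed below the filter, with a highest value of 0.160 FPKM for Blnk in WT replicate 3.

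The change of Cd79b differed between the experiments. The HDAC1cKO-HDAC2HET log2 fold change exceeded that of HDAC1cKO by 2.22 (SE 0.30, adjusted p = 0.000667, limma contrast over 14 samples), and 15.7% of 12367 genes passed this test of the difference. Of the 13 markers in it, Cd79b and Cd74 passed. Genotype, culture and experiment changed together between the 2 comparisons and cannot be told apart.

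**Figure D3:**
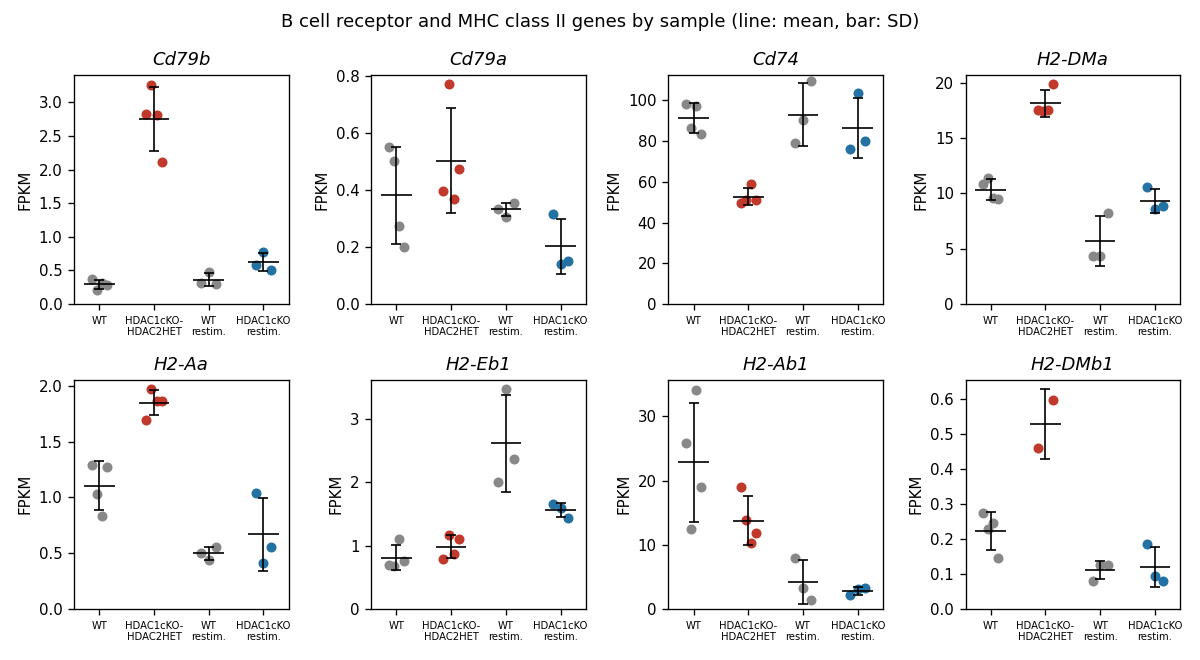
FPKM of the receptor genes Cd79b and Cd79a and of 6 MHC class II genes in each sample of the 4 groups, each axis from 0, with lines for the mean and bars for the SD, which rest on 2 samples for H2-DMb1 in HDAC1cKO-HDAC2HET cells. Cd79b lies between 2.12 and 3.26 FPKM in HDAC1cKO-HDAC2HET samples and below 0.8 in all others, while Cd74 is lowest in the same 4 samples.

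The MHC class II genes share a promoter element, the Y box, which holds the letters GATTGG and is bound by NF-Y. The 100 bases before the RefSeq start of 4 genes of this pathway are shown, on GRCm38.p6, with each GATTGG in capitals. They are H2-Aa at chr17:34287824-34287923 (minus strand), H2-Eb1 at chr17:34305767-34305866, H2-DMb1 at chr17:34153091-34153190 and H2-Oa, the gene of the α chain of H2-O, at chr17:34092279-34092378 (all plus strand):
H2-Aa: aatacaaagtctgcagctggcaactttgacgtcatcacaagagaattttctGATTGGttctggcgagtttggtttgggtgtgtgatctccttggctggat
H2-Eb1: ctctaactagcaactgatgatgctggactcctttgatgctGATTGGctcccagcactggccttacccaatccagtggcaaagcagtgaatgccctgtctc
H2-DMb1: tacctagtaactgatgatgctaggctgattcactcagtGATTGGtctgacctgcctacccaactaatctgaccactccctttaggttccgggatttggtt
H2-Oa: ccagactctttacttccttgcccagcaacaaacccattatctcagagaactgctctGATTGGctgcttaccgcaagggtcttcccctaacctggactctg
The letters begin 49, 60, 62 and 44 bases before the RefSeq start, and H2-Eb1 holds them once more on the other strand. The annotated GENCODE gene starts at the end of the window for H2-Aa and H2-Eb1, before the window for H2-DMb1 and within it for H2-Oa, so that the last 2 windows lie partly or wholly inside the spans read here. Searched on both strands, GATTGG occurs in this window in 8.62% of all 32851 listed promoters. The match is a description of the letters only. The 4 hold no gene that fell in the first experiment. H2-Aa and H2-Oa rose there, H2-Eb1 did not pass and H2-DMb1 was not tested. Of the 38 markers 27 had an entry in the promoter table; Cd79b, Cd74, H2-Ab1 and Ciita were among the other 11, and both entries of H2-DMa lay far upstream of the locus read for it and are not shown.

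Among these 7 genes 5 could be tested in the first experiment, of which 2 rose and 1 fell. Of all genes tested there 24.2% rose and 27.6% fell. Cd74, the invariant chain, was by far the most abundant marker of all 38 and was at 98.2, 86.7, 97.5 and 83.3 FPKM in WT and at 49.6, 51.3, 58.9 and 51.0 FPKM in HDAC1cKO-HDAC2HET samples. The lowest WT sample was above the highest mutant sample. The WT mean of 91.4 ± 7.6 FPKM was 1.73 times the mutant mean of 52.7 ± 4.2 (log2 fold change -0.79, SE 0.07, adjusted p = 7.7e-05, limma; exact permutation p = 0.0286).

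H2-DMa, the α chain of the peptide exchanger H2-DM, was at 10.9, 11.4, 9.60 and 9.45 FPKM in WT and at 17.5, 17.5, 17.6 and 19.9 FPKM in mutant samples. All mutant values lay above all WT values (log2 fold change 0.81, SE 0.07, adjusted p = 6.98e-05, limma). The annotated span of H2-DMa (chromosome 17, 34119541 to 34139101, plus strand) overlaps 4 other genes, among them Brd2 on the opposite strand. Per the study's methods the libraries were made with a stranded kit. Whether the counting used strand is not given in the sources used here, so reads of these genes cannot be told apart in these values. H2-DMb1, the gene of its β chain, was at 0.273, 0.227, 0.244 and 0.145 FPKM in WT and at 0.459 and 0.599 FPKM in the 2 mutant samples with a row, with no test.

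The chains of the peptide-presenting molecules were unequal in level. H2-Aa, the α chain of I-A (chromosome 17, 34282744 to 34287823, minus strand), rose from 1.29, 1.03, 0.830 and 1.28 FPKM in WT to 1.70, 1.98, 1.87 and 1.87 FPKM in HDAC1cKO-HDAC2HET samples. The groups did not overlap (log2 fold change 0.71, SE 0.14, adjusted p = 0.0037, limma). H2-Ab1, the β chain of the same heterodimer, was at 25.9, 12.4, 34.1 and 19.0 FPKM in WT and at 19.0, 13.8, 10.3 and 11.9 FPKM in mutant samples, with groups that overlapped (log2 fold change -0.67, SE 0.32, adjusted p = 0.124, limma). Without WT replicate 2, the lowest of its group, it was -0.93 with an adjusted p of 0.0251 (limma). Per length, the WT mean of H2-Ab1, 22.8 ± 9.3 FPKM, was thus far above that of H2-Aa, 1.11 ± 0.22. H2-Eb1, the β chain of I-E, was at 0.695, 0.676, 1.11 and 0.757 against 0.790, 1.17, 0.860 and 1.10 FPKM (adjusted p = 0.296, limma), with groups that overlapped.

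Ciita, the coactivator that these promoters depend on in antigen-presenting cells, was listed at 0 in 3 of 4 WT and 1 of 4 HDAC1cKO-HDAC2HET samples. The values above 0 were 0.232 FPKM in WT replicate 2, and 0.264, 0.265 and 0.276 FPKM in mutant replicates 1, 2 and 4. The groups overlapped, and the gene overlaps Dexi on the opposite strand. Of 12 further genes of the pathway 7 could be tested, of which 2 rose and 2 fell, beside 24.2% and 27.6% of all genes tested. Only H2-Oa changed at least 2-fold. H2-Oa, part of the inhibitor of H2-DM, was at 1.15 to 1.56 FPKM in WT and 4.38 to 5.25 FPKM in mutant samples (log2 fold change 1.79, SE 0.11, adjusted p = 9.49e-06, limma). Rfx5, a DNA-binding subunit of the complex that recruits CIITA, fell from a range of 3.79 to 5.14 FPKM to one of 1.94 to 2.66 FPKM (-0.92, SE 0.12), and Ctss, a protease that trims the invariant chain, fell from a range of 90.7 to 102 FPKM to one of 62.9 to 79.3 FPKM (-0.51, SE 0.08). Ifi30, a lysosomal thiol reductase, rose from a range of 35.4 to 39.6 FPKM to one of 53.4 to 59.3 FPKM (0.58, SE 0.05).

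In the HDAC1cKO experiment 6 of the 7 genes were tested and none passed (limma; 2 had an unadjusted p under 0.05). H2-DMa was at 4.35, 4.38 and 8.27 FPKM in WT and at 10.6, 8.55 and 8.85 FPKM in HDAC1cKO samples, which did not overlap by a narrow margin (log2 fold change 0.77, SE 0.27, adjusted p = 0.304, limma). With all 14 samples in the fit, which then share 1 estimate of the spread, the same change passed (adjusted p = 0.031, limma). The difference of its change from that in the first experiment was 0.04 (SE 0.26, adjusted p = 0.948, limma). H2-Eb1 was at 2.00, 3.48 and 2.37 FPKM in WT and at 1.65, 1.59 and 1.44 FPKM in HDAC1cKO samples, also without overlap (-0.67, SE 0.23, adjusted p = 0.299, limma). Its change differed from that in the first experiment by 0.93 (SE 0.30), with an adjusted p of 0.0547 (limma) that missed the threshold. That difference passed without WT replicate 3 or HDAC1cKO-HDAC2HET replicate 1 of the first experiment or WT replicate 1 of the second, at 1.02 to 1.10.

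Cd74 was at 79.2, 90.2 and 110 against 76.0, 103 and 80.1 FPKM there, with groups that overlapped. The difference of its change, the first experiment minus the second, was -0.69 (SE 0.18, adjusted p = 0.0213, limma). H2-Aa was at 0.505, 0.435 and 0.553 against 1.04, 0.410 and 0.559 FPKM, the highest value being in HDAC1cKO replicate 1, and without that replicate its log2 fold change of 0.29 became -0.04. H2-Ab1 ran from 1.41 to 7.94 FPKM in WT alone, wider than the 2.09 to 3.24 FPKM of the HDAC1cKO samples. H2-DMb1 was at 0.0811 to 0.127 against 0.0801 to 0.184 FPKM, and Ciita was listed at 0 in all 6 samples.

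Of the 12 myeloid genes 2 were tested in the first experiment and 4 in the second, and none passed (limma; 0 had an unadjusted p under 0.05). The genes that define the lineages were the lowest. Csf1r, S100a8 and S100a9 were listed at 0 in all 14 samples, and Csf1r was read from a locus without a gene name in all of them. Lyz2, lysozyme of macrophages and granulocytes, was above 0 in 1 sample only, at 0.0148 FPKM in HDAC1cKO-HDAC2HET replicate 4. Spi1 did not exceed 0.0789 FPKM, Mpo, the peroxidase of neutrophil granules, did not exceed 0.0554 FPKM, and Itgax, the integrin CD11c, did not exceed 0.0184 FPKM in any sample.

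Cd14, a coreceptor for lipopolysaccharide on monocytes, was listed at 0 in all 4 WT samples of the first experiment and at 0.0174, 0.0180, 0.0341 and 0.131 FPKM in the HDAC1cKO-HDAC2HET samples. The groups did not overlap, yet the mutant values rest on about 1, 1, 1 and 9 fragments, and the gene was too low for the test. After restimulation it was at 0.0446, 0.0231 and 0.0311 against 0.0920, 0.0435 and 0.0541 FPKM, from 1 to 4 fragments a library and with overlap.

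The myeloid genes that had a level were Cd68, Fcgr3, Itgam and Adgre1. Cd68, a lysosomal glycoprotein, was the highest, at 2.29, 3.12 and 2.99 FPKM in the WT samples with a row and at 1.86, 4.50, 3.49 and 2.00 FPKM in HDAC1cKO-HDAC2HET samples, and at 3.88 to 5.60 FPKM in the second experiment. Fcgr3, a low-affinity receptor for IgG, ran from 0.0675 to 0.842 FPKM in WT and 0.193 to 1.28 FPKM in mutant samples (adjusted p = 0.516, limma). Itgam, the integrin CD11b, was at 0.101 to 0.274 against 0.0273 to 0.333 FPKM (adjusted p = 0.712, limma), and its span overlaps another gene model on the same strand. Each of these spreads was wider within a group than the distance between the group means.

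Adgre1, which encodes the macrophage antigen F4/80, was below 0.08 FPKM in the first experiment. In the second it was at 0.196, 0.354 and 0.221 FPKM in WT and at 0.0263, 0.174 and 0.115 FPKM in HDAC1cKO samples, without overlap (log2 fold change -0.84, SE 0.40, adjusted p = 0.396, limma). Of 24 further monocyte, macrophage and granulocyte genes only Cebpb could be tested in the first experiment, at 5.97 to 8.54 against 6.62 to 8.98 FPKM (adjusted p = 0.700, limma), and 20 were below 0.1 FPKM in every sample. The complement genes C1qa, C1qb and C1qc, the granule genes Elane and Ngp, and Vsig4 were listed at 0 in all 8. Others were listed at 0 in all 4 WT samples only. Cebpa, a factor of granulocyte development, was at 0.0244, 0.0126, 0.0237 and 0.0102 FPKM in the HDAC1cKO-HDAC2HET samples, from at most 1 fragment in a library. Camp and Prtn3, of neutrophil granules, were above 0 in 3 of the 4 mutant samples, at most at 0.0417 and 0.0642 FPKM and from at most 1 and 2 fragments in a library. Mrc1, of the same list, went the other way, with 3 fragments in the 4 WT libraries and 0 in the 4 HDAC1cKO-HDAC2HET libraries. Dendritic cell genes behaved otherwise. Of 10, 5 were tested and 3 rose at least 2-fold: Batf3, a transcription factor, from a range of 1.34 to 4.26 FPKM to one of 14.5 to 25.7 FPKM (3.07, SE 0.40), Bst2, an interferon-induced membrane protein, from a range of 74.5 to 115 FPKM to one of 211 to 321 FPKM (1.65, SE 0.18), and Zbtb46, from a range of 0.550 to 1.03 FPKM to one of 2.13 to 2.90 FPKM (1.56, SE 0.19). Among all genes tested 5.60% rose at least 2-fold. Clec9a and Cd209a, receptors of dendritic cells, were listed at 0 in all 8 samples.

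Fcer1g and Tyrobp encode adaptors that carry the ITAM signalling motif of NK and myeloid receptors, and Ncr1 encodes the NK receptor NKp46. Tyrobp was listed at 0 in all 8 samples of the first experiment and rested on 4 fragments in all in the second. Ncr1 was at 0.0150 FPKM in WT replicate 4, at 0.0155 FPKM in HDAC1cKO-HDAC2HET replicate 2 and listed at 0 in the other 12 samples. Fcer1g was at 0.114, 0.178, 0.0568 and 0.219 FPKM in WT and at 0.176, 0.0451, 0 and 0.299 FPKM in HDAC1cKO-HDAC2HET samples, with groups that overlapped (adjusted p = 0.723, limma). After restimulation Fcer1g was at 0, 0.244 and 0.163 against 0.199, 0.113 and 0.188 FPKM (adjusted p = 0.793, limma).

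Other NK genes rose beside these adaptors. Of 16 further NK genes 9 were tested in the first experiment, of which 7 rose and 1 fell, beside 24.2% and 27.6% of all genes tested. Their median log2 fold change was 1.32 beside -0.04 for all genes. The 3 called genes with the largest change were Klrk1, which encodes the activating receptor NKG2D, at 0.0794 to 0.358 FPKM in WT and 21.1 to 29.1 FPKM in mutant samples (6.25, SE 0.28), Eomes, a transcription factor of cytotoxic cells, at 2.06 to 4.60 against 33.5 to 45.7 FPKM (3.71, SE 0.25), and Nkg7, a granule protein, at 29.4 to 48.1 against 133 to 166 FPKM (2.02, SE 0.15). Eomes, Nkg7 and Klrk1 are also expressed by cytotoxic T cells, and 1 gene of the list, Cd247, also stood among the T cell genes. Hcst, the adaptor DAP10 through which NKG2D signals, fell from a range of 20.3 to 22.3 FPKM to one of 4.89 to 6.14 FPKM (-1.97, SE 0.08). Klra8, a receptor of NK cells, was listed at 0 in all 14 samples. Of the genes outside the CD4 lineage of T cells, 7 in number, 4 were tested, and Cd8a and Cd8b1, the chains of CD8, rose while Trdc, the constant gene of the δ receptor chain, fell.

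Kit, the receptor for stem cell factor, was at 0.110, 0.136, 0.0878 and 0.187 FPKM in WT and at 0.213, 0.149, 0.112 and 0.137 FPKM in HDAC1cKO-HDAC2HET samples (adjusted p = 0.607, limma), with groups that overlapped. Cpa3 was at 0.0295, 0, 0 and 0.0172 FPKM in WT and listed at 0 in all 4 mutant samples. Of 11 further mast cell and basophil genes 2 were tested and 1 rose, beside 24.2% of all genes tested. Ms4a2, the β chain of the IgE receptor, was at 0.00724 to 0.0106 FPKM in WT and at 0.141 to 0.317 FPKM in mutant samples (log2 fold change 1.53, SE 0.22, adjusted p = 0.000605, limma). Beside this rise Mcpt8, Tpsb2, Mcpt4 and Prss34, proteases of these cells, were listed at 0 in all 8 samples, and Fcer1a, the α chain of the same receptor, was above 0 in 1 WT sample only.

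Among the restimulated samples 1 library stood apart in these genes. Cpa3 was listed at 0 in all 3 WT samples and was at 0.570, 0.0193 and 0 FPKM in the HDAC1cKO samples, where the value of replicate 1 rests on about 27 fragments. Kit was at 0.571, 0.226 and 0.332 against 1.17, 0.160 and 0.235 FPKM, again highest in HDAC1cKO replicate 1. Mcpt8 was at 0.755 FPKM in that replicate and listed at 0 in the other 5 samples, and Prss34 was at 0.954 FPKM there and at most at 0.0326 FPKM elsewhere. Of the 11 genes of both lists above 0 in some sample of this experiment, 9 were highest in HDAC1cKO replicate 1. Their sum was 7.67 FPKM in it and 2.04 to 2.96 FPKM in the other 5 samples. No gene of these lists passed the test, and without that replicate the log2 fold change of Kit went from 0.08 to -0.63.

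**Figure D4:**
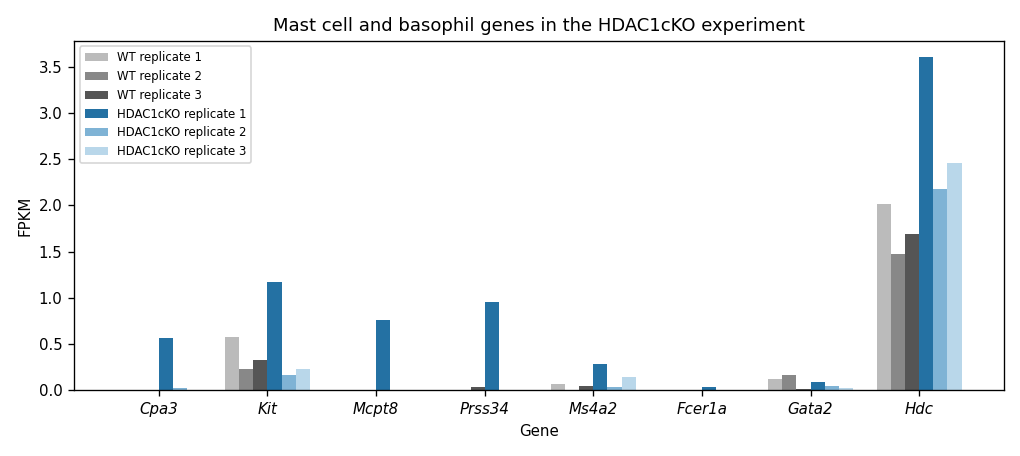
FPKM of 8 mast cell and basophil genes in the 6 samples of the HDAC1cKO experiment, as bars from 0 with 1 bar per sample. HDAC1cKO replicate 1 (dark blue) holds the highest bar for Cpa3 (0.570), Kit (1.17), Mcpt8 (0.755), Prss34 (0.954) and Ms4a2 (0.289), and the WT bars of Cpa3 and Mcpt8 are at 0.

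The same library was also highest for other markers. Of the 31 markers above 0 in some sample of the second experiment, 15 had their highest value in HDAC1cKO replicate 1, against 1 in HDAC1cKO replicate 2, 3 in HDAC1cKO replicate 3 and 2, 6 and 4 in the WT samples. Among them were Pf4, listed at 0 in the other 13 samples of both experiments and at 0.0768 FPKM from 1 fragment in this one, Spi1 at 0.0789 FPKM and Mpo at 0.0554 FPKM. Without it the log2 fold changes of Cd79b, H2-DMa, H2-Eb1 and Adgre1 were 0.68, 0.68, -0.71 and -0.53, and no marker passed. Several of the 15 rest on few fragments, with at most 4 for Ms4a1 and 3 for Blk and Cr2 in any HDAC1cKO library. The share of all genes that were highest in this library was not worked out. Neither this count nor that of the mast cell and basophil genes can therefore be set against it. The part of this library in the other results of the experiment was not tested further.

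None of the erythroid and platelet genes passed the test. Gata1, the master factor of erythroid cells, was at 1.90, 3.01, 2.73 and 2.32 FPKM in WT and at 3.22, 2.56, 2.93 and 2.76 FPKM in HDAC1cKO-HDAC2HET samples, with groups that overlapped (log2 fold change 0.21, SE 0.14, adjusted p = 0.272, limma). After restimulation Gata1 was at 0.465, 0.462 and 0.753 against 1.18, 0.627 and 0.803 FPKM, read from a longer locus, so that the levels of the experiments are not comparable. Klf1, a factor of globin genes, was at 0.0742 to 0.189 against 0.0992 to 0.198 FPKM in the first experiment (adjusted p = 0.484, limma). Hbb-bs, adult β-globin, was listed at 0 in all 14 samples.

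Itga2b, the integrin chain CD41, was at 0.314, 0.205, 0.289 and 0.498 FPKM in WT and at 0.196, 0.210, 0.233 and 0.207 FPKM in HDAC1cKO-HDAC2HET samples (log2 fold change -0.41, SE 0.21, adjusted p = 0.145, limma). The WT samples were spread widely and the mutant samples lay close together around the lowest WT value. After restimulation it was at 0.631, 0.708 and 1.31 against 1.14, 0.718 and 0.446 FPKM. Among 12 further erythroid genes 4 were tested in the first experiment, of which 1 rose and 1 fell. Of all genes tested there 24.2% rose and 27.6% fell. Epor, the erythropoietin receptor, rose from a range of 0.989 to 1.46 FPKM to one of 1.99 to 2.23 FPKM (0.70, SE 0.13), and Tfrc, the transferrin receptor, fell by 0.72 on the log2 scale (SE 0.04) to 139 to 146 FPKM, while Alas2, Slc4a1, Car1 and Hba-a2 were listed at 0 in all 8 samples. Other globin genes had few reads. Hbb-bt, a second adult β-globin, was at 0.166, 0.148, 0.504 and 0.346 FPKM in WT and at 0.506, 0.0520, 0 and 0.0835 FPKM in mutant samples, with groups that overlapped, and did not pass. Hba-a1, an α-globin, was at 0 to 0.0738 FPKM in WT and listed at 0 in all 4 mutant samples. Among 11 platelet and megakaryocyte genes 4 were tested, of which 1 rose and 1 fell. Itgb3, the partner of CD41, rose from a range of 8.29 to 9.98 FPKM to one of 12.5 to 19.4 FPKM (0.86, SE 0.13). The platelet genes Ppbp, Treml1 and Clec1b were listed at 0 in all 8 samples. Of 9 stromal and endothelial genes 3 were tested, of which Epcam, an epithelial adhesion molecule, rose (1.09, SE 0.16) and Pecam1, CD31 of endothelial cells and leukocytes, fell (-1.28, SE 0.13). After restimulation none of the 62 tested genes of the 11 further lists passed (limma). An unadjusted p under 0.05 (limma) was found for 19 of them, beside 1998 of all 13946 genes tested.

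The summed level of each list, given without a test because its members were chosen with results known, followed its highest gene. The 9 B cell genes summed to 0.614 to 1.07 FPKM in WT and 3.27 to 4.40 FPKM in HDAC1cKO-HDAC2HET samples. Without Cd79b the ratio of the means went from 4.21 to 1.55. The 6 MHC class II genes with a value in every sample summed to 112 to 143 against 86.0 to 89.5 FPKM, and without Cd74 the ratio went from 0.69 to 0.99. Sums over the other lists overlapped between the groups, at 0.237 to 1.23 against 0.603 to 1.49 FPKM for 11 myeloid genes, at 0.0568 to 0.234 against 0 to 0.299 FPKM for the ITAM adaptor and NK genes, at 0.0878 to 0.204 against 0.112 to 0.213 FPKM for the mast cell and basophil genes, at 2.00 to 3.10 against 2.68 to 3.32 FPKM for the erythroid genes and at 0.205 to 0.498 against 0.196 to 0.233 FPKM for the platelet genes. In the HDAC1cKO experiment all of these sums overlapped between the groups.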

How the data were processed

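Per the study's methods, the authors mapped the reads to mm10 with TopHat and computed the deposited FPKM values with Cufflinks, separately for each library, so that a gene is listed by name in some libraries and as an unnamed locus in others. The submitters' processing notes also name STAR 2.5.2b, Subread 1.5.1, R 3.4 and edgeR, whose role for these files is not given in the sources used here. Unnamed loci were matched by position to GENCODE gene and transcript spans of GRCm38 where they shared at least 0.8 of the joint span; a matched locus listed at 0 was not tested. Depth was estimated from the confidence bounds, which gave whole fragments (within 0.05) for 78.2 to 81.5% of low values; no read counts were used, and intervals cover counting error only.

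Mutant and WT samples were compared within each experiment with limma 3.58.1 (R 4.3.3) on log2(FPKM + 0.1) with an intensity trend, over genes with a mean of at least 0.1 FPKM, with Benjamini-Hochberg adjustment over 15110 and 13946 genes. The difference between the experiments was a contrast over 12367 genes. Single values were compared by a 2-sided exact permutation test. The members and lists were chosen with earlier results of these data known. All 38 members are described, with values per sample for those that were called, did not overlap or define a lineage; of the further lists the 3 called genes with the largest change and defining genes at 0 are named, except for some that are not reported here. Same-numbered samples did not deviate together (r between -0.027 and 0.066). The fits were tested on simulated data, and alternatives in pseudocount, filter, scaling, variance model, weights, matching and samples were run.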

Additional observations from a re-analysis of the deposited data

Results flagged for a closer look

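Groups of 4 were checked for a sample far from the others by the gap to its neighbour over the range. Chance flags about 1 group in 20 for normally distributed values, but a group with a single value above 0 is flagged by construction. That was so for Lyz2 in mutant, Ncr1 in both and Ciita in WT samples, so the count cannot be set against this rate. In all, 12 of 58 groups had a sample apart, most of them at levels that rest on few fragments. In WT samples of the first experiment these were replicate 3 for Ebf1 (0.0194 FPKM), Blk (listed at 0) and Itgam (0.274), replicate 2 for Ciita (0.232) and replicate 4 for Ncr1 (0.0150). In HDAC1cKO-HDAC2HET samples they were replicate 2 for Pax5 (0.0255) and Ncr1 (0.0155), replicate 3 for Ciita (listed at 0), and replicate 4 for Cr2 (0.477), H2-DMa (19.9), Lyz2 (0.0148) and Cd14 (0.131). HDAC1cKO-HDAC2HET replicate 4 was the deepest library and held 4 of the 12.

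The log2 fold changes differed between the experiments for Cd79b by 2.22 and for Cd74 by -0.69, both past an adjusted p of 0.05 in the test of the difference itself (limma). Genotype and culture cannot be told apart in either.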

How the results depend on the processing

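For the 44 combinations of marker and comparison, 739 of 786 alternative values kept direction and side of the threshold, 39 changed sign without passing, 7 passed anew and 1 no longer passed. Cd79b, H2-DMa, H2-Aa and Cd74 passed in the first experiment under every alternative that gave a value (Cd79b between 1.53 and 3.21), and Cd79b did so in the difference (1.28 to 2.36). With a separate spread for each experiment the difference of Cd74 missed (adjusted p = 0.0506, limma), leaving 1 passing marker, and H2-Eb1 passed with a pseudocount of 1 (0.61) or sample weights (1.16). Rows listed by name alone left 0 falling markers in the first experiment and 1 in the difference, since Cd74 is then not tested. With all 14 samples in the fit 1 marker rose in the HDAC1cKO experiment, H2-DMa. Left-out replicates moved the number of falling markers in the first experiment between 1 and 2.

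The count of genes over the whole table was less stable. In the HDAC1cKO experiment 2 rose and 8 fell, but 641 and 725 with all 14 samples, 24 and 40 with a sex covariate, 16 and 14 with sample weights, 0 and 6 without an intensity trend, and 24 and 32 without WT replicate 3. Named rows alone gave 474 and 542 in the first experiment and 39 and 16 in the difference, and a separate spread gave 597 and 533 in the difference against 1015 and 923. A sex covariate could not be fitted in the first experiment. With the replicate block, whose numbers do not pair samples, 3 markers rose and 1 fell in the first experiment, 0 and 0 passed in the second and 2 in the difference, while all genes passing went from 7830 to 7098, from 10 to 5 and from 1938 to 1308.

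Changes of sign, none passing, were as follows in the HDAC1cKO experiment. Ebf1 was at 0.008 with a pseudocount of 1, 0.026 centred on the median and 0.021 with the sex covariate. H2-DMb1 was at -0.10 with weights and -0.059 with the sex covariate, H2-Ab1 at 0.17 with weights, and Fcer1g and Itga2b at -0.38 and 0.023 with the sex covariate. Left-out replicates spanned -0.46 to 0.35 for Ebf1, -0.16 to 0.17 for H2-DMb1, -0.86 to 0.35 for H2-Ab1, -0.19 to 0.70 for Fcer1g, -0.49 to 0.10 for Itga2b, -0.63 to 0.52 for Kit, -0.039 to 0.54 for H2-Aa and -0.24 to 0.020 for Cd74. In the first experiment they spanned -0.56 to 0.11 for Fcer1g and -0.56 to 0.025 for Itgam. In the difference Kit was at -0.064 with a pseudocount of 1 and -0.029 with weights, and Itgam at -0.28 with weights. Left-out replicates spanned -0.38 to 0.76 for Kit, -0.17 to 0.61 for Itgam, -0.51 to 0.082 for Itga2b, -0.26 to 0.19 for H2-DMa and -1.02 to 0.19 for H2-Ab1 there.

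The ratios of summed levels depended on single genes. Without its highest gene the ratio in the first experiment was 1.55 for B cell, 0.993 for MHC class II, 0 for mast cell and basophil and 1.27 for erythroid genes, and it was 1.11 for MHC class II genes in the second. Named rows alone gave 8.36, 1.75 and 0 for the first 3 of these lists. Left-out replicates spanned 0.667 to 0.724 for MHC class II and 0.576 to 0.784 for platelet genes in the first experiment, and 0.876 to 1.78 for ITAM adaptor and NK genes in the second. The cause of these moves was not tested beyond the genes and samples left out.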
